A study of Mus musculus with 29 samples.

Results

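The response to a first injection of lipopolysaccharide (LPS), a component of the outer membrane of Gram-negative bacteria, was measured in microglia that had grown back after depletion with a drug. The comparison holds 10 of the 29 libraries of the series, 5 from mice given LPS (PBL) and 5 from mice given saline (PBP), taken by their labels alone, and it covers every gene that passed a filter on low counts, 16632 of the 36982 in the count table. All 10 animals were male C57BL/6J mice that received saline into the peritoneum at 10 weeks of age and, from 1 week later, the CSF1R inhibitor BLZ945 at 169 mg/kg, given by mouth on each of 5 days. At 15 weeks, 5 weeks after that saline, PBL mice received LPS at 1 mg/kg and PBP mice saline again, and brains were taken 3 h later. Every mouse of the comparison was thus depleted once and none had met LPS before. Undepleted mice that received vehicle in place of BLZ945 and then LPS (PL, n = 4) or saline (PP, n = 5) are set beside them in places. Microglia were isolated by flow sorting of live CD11b-high cells in which CD45 was intermediate and Ly6C absent. No label tells cells that survived BLZ945 from cells that grew back, and of the animals the labels give only that each yielded 1 sample, so p-values here reflect sample-to-sample spread.

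Microglia are the resident macrophages of the brain and need signals through CSF1R to survive. LPS is handed by CD14 to Toll-like receptor 4 (TLR4) on their surface, whose adaptors start one branch through NF-kB and the MAP kinases, which induces cytokines, and another through interferon regulatory factors, which induces interferon and the genes that respond to it. NF-kB is held in the cytoplasm by inhibitor proteins and induces several of its own inhibitors, so that the response is damped soon after it starts. In the healthy brain microglia also keep a homeostatic programme of surface receptors and transcription factors, among them P2RY12, TMEM119 and SALL1, that depends on TGF-beta and that inflammation is known to reduce.

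All 10 libraries carried the defining genes of microglia. Levels are given as CPM, counts scaled to the effective size of each library. Tmem119, a surface marker of microglia, lay between 3707 and 7835 CPM over the 10 libraries, and Csf1r, the receptor that BLZ945 blocks, between 3729 and 7859.7. Total counts ran from 5670450 to 11198323 per library. Sorting day and sorter did not separate from treatment: PBP replicates 1 to 4 came from a MoFlo Astrios on sorting day 4, whereas PBP replicate 5 and all PBL libraries were sorted on day 3 on a MoFlo XDP. The RNA quality number, a score on which intact RNA is higher, was 8.8 to 9 in PBP replicates 1 to 4, 7.4 in PBP replicate 5 and 7.4 to 7.9 in PBL. On the first principal component of the 10 libraries, which held 57.3% of the variance, PBP replicates 1 to 4 lay at -95.8 to -77.7, PBP replicate 5 at -14.2 and PBL at 57.1 to 87.9.

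PBP replicate 5 also had higher summed levels of neuron and red blood cell markers than the other PBP libraries. Its endothelial and pericyte markers, at 20.8 CPM, lay within the 20.6 to 28.8 CPM of PBP replicates 1 to 4. The summed level of 13 neuron markers was 59 to 175 CPM in PBP replicates 1 to 4, 690 in PBP replicate 5 and 603 to 1040 in PBL. Red blood cell markers summed to 0.134 to 7.2 CPM in PBP replicates 1 to 4, 75.5 in PBP replicate 5 and 5.68 to 155 in PBL. The neutrophil list, by contrast, summed to 265 to 357 CPM in PBP replicates 1 to 4, 311 in PBP replicate 5 and 418 to 762 in PBL. Thus the sums of the neuron and red blood cell lists put PBP replicate 5 among the PBL libraries. The neutrophil sum put it among the other PBP libraries, but in PBP that sum was mostly Csf3r, a receptor that microglia also express. As mean log2 CPM of its tested members, the neutrophil list stood at -0.7 to -0.57 in PBP replicates 1 to 4. It stood at 4.19 to 5.77 in PBL and at 0.77 in PBP replicate 5. Because of this library, 3 fits were made: with all 5 PBP libraries, without PBP replicate 5, and among XDP libraries alone, where the 5 PBL libraries meet PBP replicate 5 and that lone library is assumed to vary like the other XDP groups. The XDP groups that supply this spread are PBL, LL and LBL. LL and LBL mice received LPS at both injections, LBL mice with BLZ945 between them, and these groups are also part of the fit of all libraries. A value with no fit named comes from all 5 PBP libraries.

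**Figure D1:**
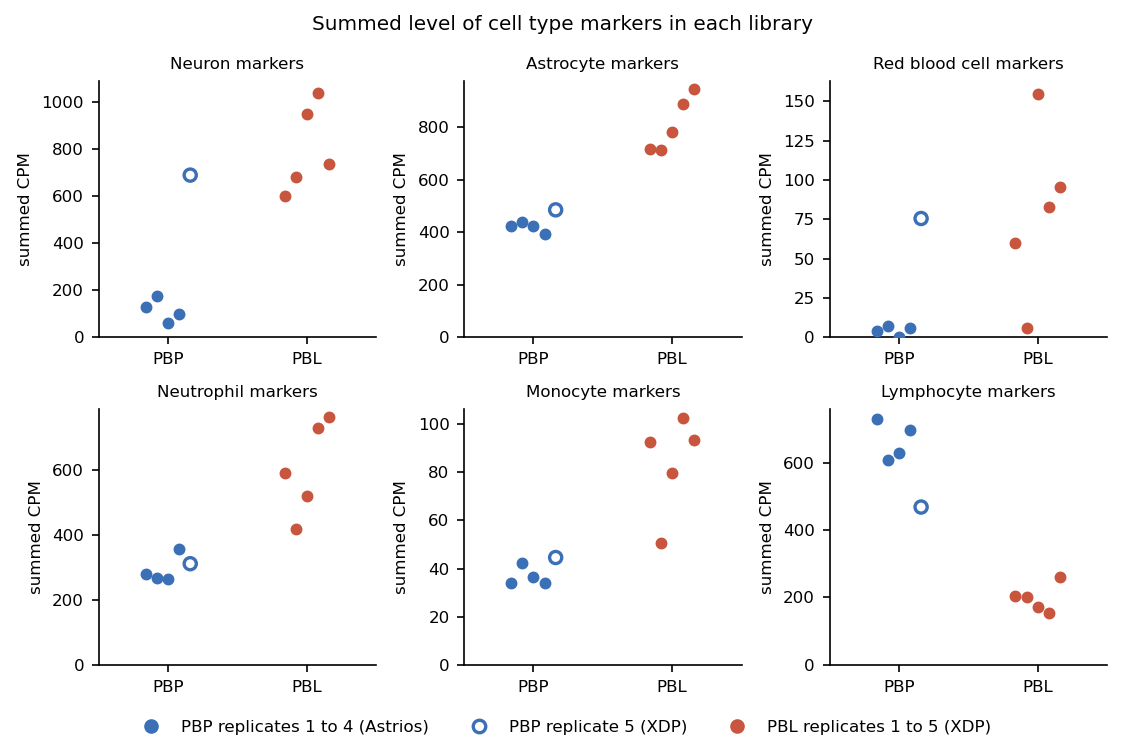
Summed level (CPM, vertical axis from 0) of 6 lists of cell type markers in each library of PBP and PBL; each point is 1 library and the open circle is PBP replicate 5. The open circle lies with PBL for neuron markers (690 CPM, against 59 to 175 in the other PBP libraries) and with the other PBP libraries for neutrophil markers (311 CPM). In PBP, Csf3r, which microglia also express, made up most of the neutrophil sum, and Slc1a3 most of the astrocyte sum.

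The promoters of 4 genes are shown because their letters hold the motifs through which both branches of TLR4 signalling are known to act. Each is the 250 bases before the RefSeq start of the gene, 5′ to 3′ on the strand of the gene, in build GRCm38.p6. Capitals mark matches to a kB motif, bound by NF-kB (GGG, then any 3 bases, then TTCC), an ISRE, bound by interferon-activated factors (GAAA, any 2 bases, GAAA), or an AP-1 motif (TGANTCA), searched on both strands. Nfkbia (chr12:55492648-55492897, minus strand) encodes the NF-kB inhibitor IkB-alpha and has a kB match 29 bases before its start. Cxcl10 (chr5:92348890-92349139, minus strand) encodes a chemokine for T cells and has an ISRE match at 213 bases, kB matches at 159 and 104 and an AP-1 match at 74. Gbp5 (chr3:142496684-142496933, plus strand) encodes a guanylate-binding protein of cell-intrinsic defence, with an ISRE match at 165 and a kB match at 77. Isg15 (chr4:156200819-156201068, minus strand) encodes a ubiquitin-like protein, and its ISRE matches at 78, 72 and 66 overlap one another.
Nfkbia: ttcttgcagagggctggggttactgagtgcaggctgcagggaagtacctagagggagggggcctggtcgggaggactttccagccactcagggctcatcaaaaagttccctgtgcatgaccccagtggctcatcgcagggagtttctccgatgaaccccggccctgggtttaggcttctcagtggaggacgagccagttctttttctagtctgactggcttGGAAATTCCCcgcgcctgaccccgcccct
Cxcl10: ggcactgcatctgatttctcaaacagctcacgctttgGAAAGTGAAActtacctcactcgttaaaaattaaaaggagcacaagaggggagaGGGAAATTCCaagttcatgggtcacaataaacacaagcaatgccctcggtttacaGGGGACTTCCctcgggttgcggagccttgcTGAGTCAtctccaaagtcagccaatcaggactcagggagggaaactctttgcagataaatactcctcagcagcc
Gbp5: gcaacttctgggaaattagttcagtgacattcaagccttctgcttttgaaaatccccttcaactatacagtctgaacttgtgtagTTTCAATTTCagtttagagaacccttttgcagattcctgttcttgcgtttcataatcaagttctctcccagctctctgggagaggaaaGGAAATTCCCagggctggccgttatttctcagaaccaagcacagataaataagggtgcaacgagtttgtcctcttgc
Isg15: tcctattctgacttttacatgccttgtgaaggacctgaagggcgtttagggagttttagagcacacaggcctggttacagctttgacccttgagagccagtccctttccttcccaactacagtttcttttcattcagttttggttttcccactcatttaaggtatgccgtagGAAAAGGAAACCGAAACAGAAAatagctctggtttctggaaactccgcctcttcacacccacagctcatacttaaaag

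All 4 genes rose after LPS, and in each the highest PBP library lay below the lowest PBL library. Nfkbia stood at 222, 171, 189.6, 202 and 172 CPM in PBP replicates 1 to 5 and at 2140.5, 2006, 2249, 2316 and 2222 in PBL replicates 1 to 5. The groups were far apart and PBP replicate 5 lay among the others, and on the log2 scale the rise was 3.51 with an SE of 0.12 (adjusted p = 4.1e-22; values after ± beside later fold changes are SEs). Cxcl10 was measured at 3.68, 2.44, 2.55, 1.34 and 1.24 CPM in PBP and at 690.4, 537, 847, 814 and 599 in PBL. It was nearly silent in every saline library and rose by 8.26 ± 0.69 (adjusted p = 7.79e-10). Gbp5 had 2.59, 3.6, 7.39, 4.29 and 8.54 CPM in PBP and 142, 142, 167, 182 and 158 in PBL, where PBP replicate 5 was the highest saline library and still far below the lowest PBL library. Its log2 fold change was 4.94 ± 0.29 (adjusted p = 6.07e-15) and 4.23 ± 0.37 among XDP libraries alone (adjusted p = 1.6e-08). Isg15 had 7.89, 8.49, 7.79, 6.35 and 9.63 CPM in PBP and 38.9, 25.4, 42.5, 33.8 and 22.3 in PBL, a smaller rise of 2.02 ± 0.21 (adjusted p = 1.68e-09), again with PBP replicate 5 the highest saline library.

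Motif matches can be set against all promoters of the same length. A kB match was found in 4.65% of the 32851 promoters of the table and in 5.14% of the 13626 promoters of genes tested here, and an ISRE match in 2.98% and 2.73%. Among promoters matched to the list of NF-kB subunits and feedback regulators, 35.48% (11 of 31) held a kB match, and among those of interferon-stimulated genes 46.67% (21 of 45) held an ISRE match. For the genes higher in PBL in all 3 fits described below, the shares were 7.53% for kB and 4.8% for the ISRE. For the higher genes whose level in PBP replicate 5 reached the PBL range they were 4.28% and 2.57%. An AP-1 match was found in 6.75% of all promoters in the table, 4.42% of those of genes tested and 5.74% of those of genes higher in all 3 fits. These are matches of letters, and no binding was measured.

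With all 10 libraries, 3580 genes were higher in PBL than in PBP (21.5% of genes tested) and 3583 were lower (21.5%), by edgeR's quasi-likelihood test at an adjusted p under 0.05. Of these, 2238 rose and 1242 fell at least 2-fold. Without PBP replicate 5, 4463 genes were higher (26.8%) and 3835 lower (23.1%). Among XDP libraries alone, 1289 were higher (7.75%) and 805 lower (4.84%). Calls made in the same direction in all 3 fits numbered 1137 higher (6.84%) and 712 lower (4.28%). The libraries of PBL and PBP did not overlap, with PBL higher, for 2080 genes (12.5%) and, with PBL lower, for 1928 (11.6%).

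Where PBP replicate 5 lay divided the genes into kinds. Of the 4463 genes higher in PBL than in PBP replicates 1 to 4, 2088 (46.8%) had PBP replicate 5 within the range of the PBL libraries or above it, 1556 (34.9%) had it within the range of the other PBP libraries or below it, and 819 (18.4%) had it between. Of the 3835 lower genes the corresponding numbers were 1613 (42.1%), 1301 (33.9%) and 921 (24%). This split uses the same contrast as the calls and is a description. The undepleted mice share no library with these 10, and all of their libraries came from the Astrios. Their LPS response, estimated in the fit of all 29 libraries, does not measure the split but can be set beside it. In it, 2369 genes (14.2% of genes tested) were higher in PL than in PP. Of the genes whose level in PBP replicate 5 reached the PBL range, 9.6% were also higher in PL than in PP, and of those whose level in it stayed with the other PBP libraries, 75.8% were. For lower genes, of which PL against PP had 1981 (11.9%), the shares were 12.8% and 57.6%. Of the 1137 genes higher in all 3 fits, 1078 (94.8%) were higher in PL than in PP, which is 45.5% of the PL list, and of the 712 lower genes 613 (86.1%) were lower, 30.9% of that list. Over the full lists with all 10 libraries, 1863 higher genes were shared (52% of the repopulated list and 78.6% of the undepleted list).

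**Figure D2:**
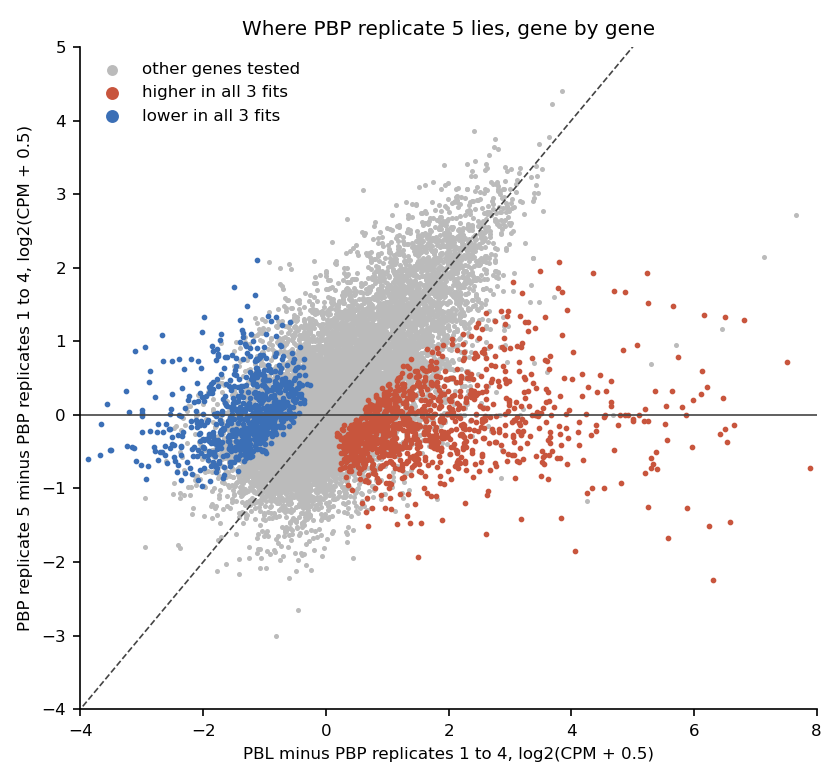
Each point is 1 of the 16632 genes tested: horizontal axis, mean of PBL minus mean of PBP replicates 1 to 4; vertical axis, PBP replicate 5 minus the same mean, both in log2(CPM + 0.5). Both axes share PBP replicates 1 to 4 as their base, which pulls points toward the dashed diagonal. Genes called higher or lower in all 3 fits spread along the horizontal line, where PBP replicate 5 equals the other PBP libraries. These genes had to differ between PBL and PBP replicate 5, so their place away from the diagonal follows from the rule.

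**Figure D3:**
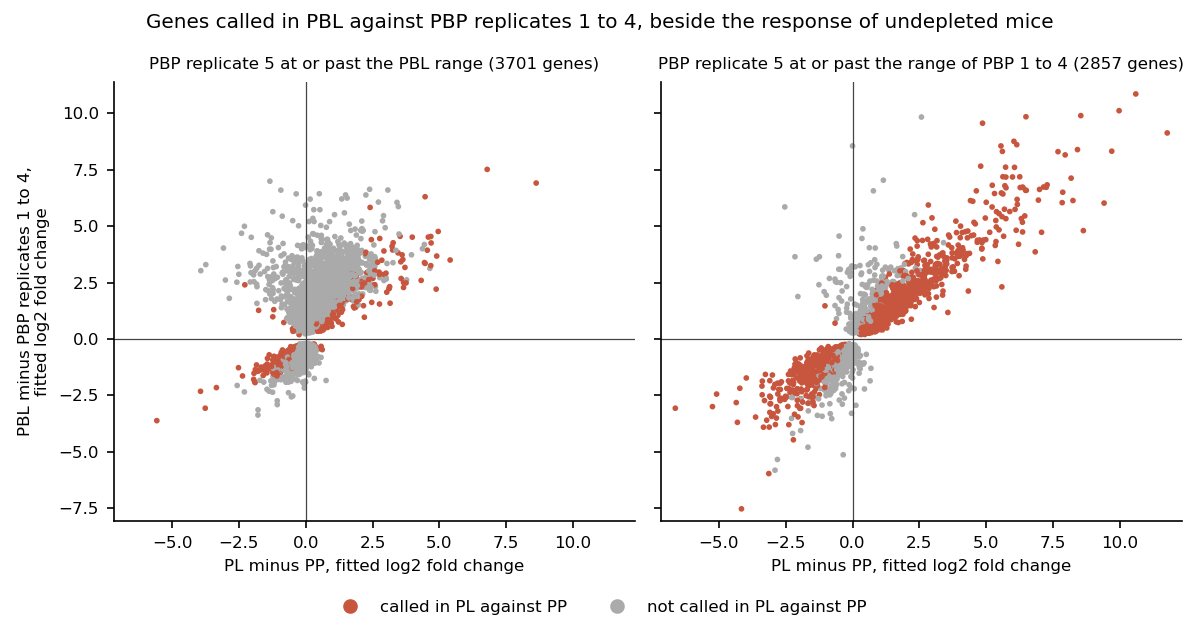
Fitted log2 fold change of PBL minus PBP replicates 1 to 4 (vertical) beside that of PL minus PP (horizontal), for genes called in the former. In the left panel PBP replicate 5 reached the PBL range and 9.6% of the higher genes were also called higher in PL; in the right panel it stayed with the other PBP libraries and 75.8% were.

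The largest rises that held in all 3 fits, among genes with a mean of at least 10 CPM, a name and groups that did not overlap, included receptors, cytokines and enzymes of acute inflammation. Trem1, an amplifying receptor of myeloid cells, had no count in any PBP library and 42.1, 23.8, 31.3, 32.7 and 18.6 CPM in PBL, at least 417-fold higher at the level of 3 counts over the PBP group. Il12b, a subunit of interleukin-12, rose from 0.299 ± 0.311 to 133 ± 51.5 CPM (mean ± SD, n = 5 in each group). Ptgs2, which encodes the prostaglandin-forming enzyme COX-2, rose from 0.123 ± 0.123 to 60.9 ± 15.8 CPM and had no count in PBP replicate 5. Dusp2, a phosphatase that acts on MAP kinases, also without a count there, reached 30.3 ± 8.35 CPM. Gadd45b, a stress response gene, Cish, a suppressor of cytokine signalling, Rnd1, a small GTPase that rounds cells, and Ehd1, an endocytic recycling protein, had log2 fold changes of 7.22, 7.07, 7.68 and 7.08, and of 7.65, 6.80, 6.06 and 6.71 among XDP libraries alone. Cxcl10 and S100a9, an alarmin of neutrophils described further on, complete the 10 largest.

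The largest falls by the same rule included those of Cbx8, Lpar5, Rgs2, Sh2d3c, Cbfa2t3, Hhex, Inka1, Sox4 and H2aw. Rgs2, which switches off G protein signals, stood at 1016, 776, 832, 739 and 763 CPM in PBP and 56.4, 65.5, 47.8, 60.7 and 112 in PBL. PBL replicate 5 was the highest of its group, and all PBL libraries lay far below all PBP libraries. Cbx8, a Polycomb protein that reads methylated histone H3, fell by 3.98 ± 0.38 on the log2 scale. Lpar5, a receptor for lysophosphatidic acid, fell by 3.70. Hhex, a homeobox factor, fell by 3.34, and Sox4, an HMG-box factor, fell by 3.02. Sh2d3c, a signalling adaptor, Cbfa2t3, a transcriptional co-repressor, Inka1, an inhibitor of the kinase PAK4, and H2aw, a histone H2A gene, fell by 3.51, 3.42, 3.04 and 2.94. Falls of these genes among XDP libraries alone lay between 4.06 for Cbfa2t3 and 2.34 for H2aw.

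Many genes that sense LPS or relay its signal were higher in PBL, and the receptor itself was lower. Of 25 tested members of the TLR4 list, 13 were higher and 6 lower with all libraries, 13 and 5 without PBP replicate 5, and 8 and 1 among XDP libraries alone, with a median log2 fold change of 0.4 beside 0 over all genes tested. Over all genes tested, 21.5% were called in each direction with all libraries, and 7.75% higher and 4.84% lower among XDP libraries alone. The share of lower members, 6 of 25 and 1 of 25, was thus near that of all genes. Tlr4 itself stood at 158, 181, 186, 197 and 111 CPM in PBP and 55.7, 59.7, 53, 48 and 40.2 in PBL. PBP replicate 5 was the lowest saline library and PBL lay below all of them, with a fall of 1.70 ± 0.15 on the log2 scale (adjusted p = 1.6e-11) that was 1.11 ± 0.21 against PBP replicate 5 alone (adjusted p = 0.000544). Its co-receptor Cd14 went the other way, from 1612, 1574, 1545, 1369 and 1138 CPM in PBP to 6472, 4409.9, 5817, 5708 and 4511 in PBL, a rise of 1.89 ± 0.12 (adjusted p = 8.84e-15). Tlr2, the receptor for bacterial lipoproteins, rose by 3.09, the adaptor Myd88 by 1.65, the adaptor of the interferon branch Ticam1 by 1.40 and the kinase Map3k8 by 4.07. Ly96, which encodes the LPS-binding partner of TLR4, and the kinase Irak2 fell by 0.95 and 0.87, but not among XDP libraries alone (-0.62, adjusted p = 0.131, and -0.31, adjusted p = 0.599).

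Subunits of NF-kB and its feedback regulators rose together in every fit. Of 29 tested members, 24 rose and 1 fell with all libraries, 25 and 0 without PBP replicate 5, and 22 and 0 among XDP libraries alone, with a median of 2.55. Socs3, which blocks signalling from the receptors of the interleukin-6 family, stood at 13.5, 15.6, 16.7, 15.6 and 13.4 CPM in PBP and 1251, 1588, 1551, 1196 and 1699 in PBL. No saline library came near any LPS library, and the log2 fold change was 6.60 ± 0.22 (adjusted p = 3.16e-21). Among the regulators, Tnfaip3, which encodes the ubiquitin-editing enzyme A20, rose by 2.97, Nfkbiz by 3.00, Nfkbie by 1.12 and Bcl3 by 6.57. Zc3h12a, an RNase that degrades cytokine mRNA, and Zfp36, which binds such mRNA and promotes its decay, rose by 2.67 and 2.55. Among the subunits, Nfkb2 rose by 2.57, Relb by 2.88, Nfkb1 by 1.04, Rel by 0.90 and Rela by 0.85. Cyld, a deubiquitinase that restrains NF-kB, was the 1 member that fell (-0.33, adjusted p = 0.0359), and it did not pass without PBP replicate 5 (-0.25, adjusted p = 0.114).

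Secreted signals followed. Among 21 tested cytokines and growth factors 16 rose and 1 fell (13 and 0 among XDP libraries alone, median 1.57), and among 19 chemokines 15 rose and 1 fell (13 and 0, median 3.86). Ccl12, a chemokine that draws monocytes, stood at 125, 88.7, 79.9, 63.7 and 51.6 CPM in PBP and 5471, 3655, 3920.3, 3299 and 2544 in PBL. PBP replicate 5 was the lowest saline library, and the rise was 5.53 ± 0.27 with all libraries and 6.21 ± 0.51 against PBP replicate 5 alone. Ccl5, Ccl4, Ccl2, Ccl7 and Ccl3, which draw monocytes and T cells, rose by 5.34, 4.63, 3.86, 4.18 and 2.97, and Cxcl9, an interferon-gamma-induced chemokine, by 3.60. Cxcl11 had no count in any PBP library and a mean of 5.99 CPM in PBL, at least 84-fold higher. Of the cytokines, Il1a rose by 2.53, Osm by 2.31 and Il6 by 1.41, while Il1rn, the antagonist of the interleukin-1 receptor, rose by 6.80 and Tnfsf9, a ligand of T cells, by 6.35. Ccl24 and Tnfsf10 fell by 0.98 and 0.86 with all libraries and were not called among XDP libraries alone. Tgfb1 showed the other pattern, 1.11 with all libraries (adjusted p = 0.00113), 24.6 CPM on average in PBP replicates 1 to 4, 52.5 in PBP replicate 5 and 64.5 in PBL, so that the value among XDP libraries was 0.31 (adjusted p = 0.666).

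**Figure D4:**
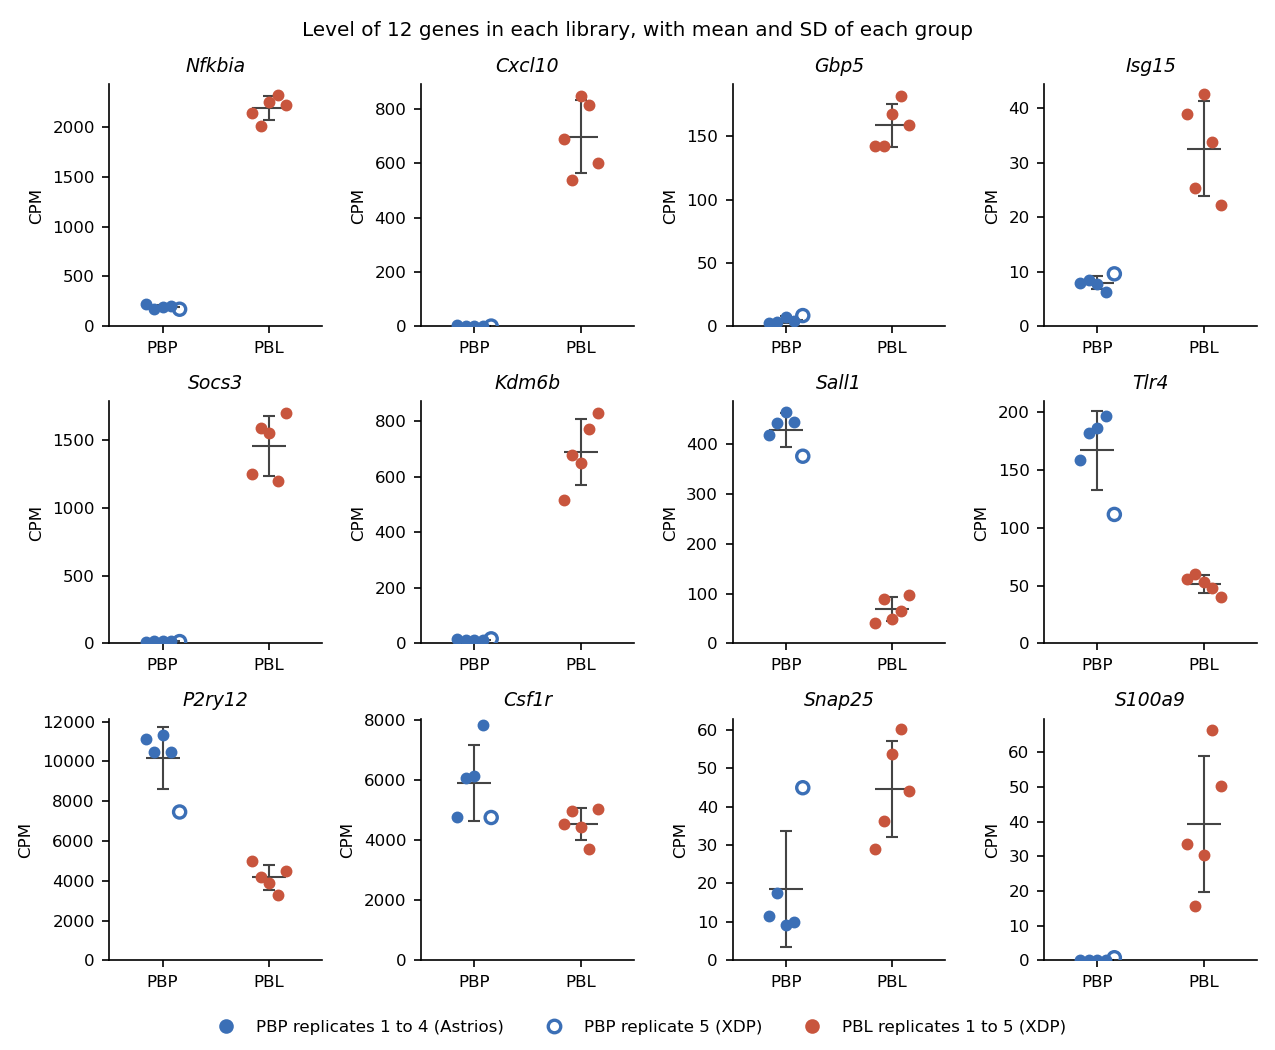
Level (CPM, vertical axis from 0) of 12 genes in each library; lines and bars give the mean and SD of each group of 5, and the open circle is PBP replicate 5. For the 6 genes from Nfkbia to Kdm6b it lies near the other PBP libraries, whereas for Csf1r and Snap25 it lies within the PBL range.

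Many interferon-stimulated genes rose as well. Of 48 tested interferon-stimulated genes 33 rose and 2 fell (33 and 2 without PBP replicate 5, 26 and 1 among XDP libraries alone), with a median of 1.16. Beside Gbp5 and Isg15, the antiviral genes Rsad2, Ifit1 and Oasl1 rose by 3.12, 2.87 and 3.55, the guanylate-binding proteins Gbp2 and Gbp7 by 2.51 and 1.79, and Slfn2, a schlafen gene of leukocytes, by 3.89. Ifi205, a DNA sensor gene, had no count in PBP and a mean of 5.08 CPM in PBL, at least 71.3-fold higher. Other classical members did not pass, among them Mx1 (0.75, adjusted p = 0.222), Usp18 (0.46, adjusted p = 0.0656) and Bst2 (0.06, adjusted p = 0.65). Samhd1, a nuclease that limits retroviruses, fell in all 3 fits, by 0.63 with all libraries. In the pathway itself, 10 of 19 tested members rose and 3 fell (9 and 4 without PBP replicate 5, 7 and 1 among XDP libraries, median 0.3). With all libraries the share of lower members was below the 21.5% of all genes tested. Stat3, Stat2 and Irf1, transcription factors downstream of cytokine and interferon receptors, rose by 2.52, 2.34 and 2.21, and Irf8, a factor that defines microglia, fell by 0.89. Several schlafen, Gbp and Ifit genes are near-identical copies whose reads counting could have split, so single values among them are uncertain.

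Immediate early genes rose in PBL, and PBP replicate 1 stood apart from its group in them. Of 16 tested members 13 rose and none fell with all libraries, 13 and 1 without PBP replicate 5, and 13 and 0 among XDP libraries alone, with medians of 2.43, 2.41 and 3.64. Without PBP replicate 1, 14 of the 16 rose and none fell, with a median of 3.13. Fos, a component of the AP-1 factor, stood at 102, 0.772, 1.75, 0.626 and 1.4 CPM in PBP and 54.7, 104, 79.9, 73.1 and 106 in PBL. Egr1, a zinc finger factor, stood at 152, 8.87, 4.57, 2.24 and 4.5 CPM in PBP and 285, 592, 285, 553 and 713 in PBL. In both genes PBP replicate 1 was far above the other 4 saline libraries, and for Fos it reached the PBL range. With all libraries Fos had a log2 fold change of 1.94 ± 0.97 (adjusted p = 0.111), and without PBP replicate 1 one of 6.25 (adjusted p = 1.67e-05). Jun, the partner of FOS, moved from 0.34 (adjusted p = 0.631) to 1.62 (adjusted p = 0.000812) on the same change, and Egr1 from 3.80 to 6.62. Ier3 and Ier2, early response genes, and Dusp1, the phosphatase that ends p38 signalling, rose by 6.46, 5.29 and 5.95. In the list of MAP kinase phosphatases and AP-1, 11 of 21 members rose and 5 fell (11 and 4 without PBP replicate 5, 13 and 3 among XDP libraries, median 1.94). The share of lower members with all libraries was near the 21.5% of all genes tested. Fosl2, Batf and Junb rose by 4.69, 3.29 and 2.80, whereas Dusp7, a phosphatase for ERK, and Maf, a large MAF factor, fell by 1.96 and 2.27.

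Factors that set microglial identity changed in both directions, with more falls than rises when all libraries were used. Of all genes tested, 21.5% were called in each direction in that fit. Of 28 tested members 14 fell and 9 rose with all libraries, the same numbers were found without PBP replicate 5, and 8 fell and 7 rose among XDP libraries alone. Sall1, which keeps microglia from taking on a general macrophage state, stood at 418, 442, 464, 444 and 376 CPM in PBP and 41.9, 88.5, 48.8, 64.7 and 97.8 in PBL. Every PBL library lay below every PBP library, with a fall of 2.65 ± 0.17 (adjusted p = 8.33e-15) and of 2.44 ± 0.26 against PBP replicate 5 alone. Mef2c, a MADS-box factor of microglia, Bhlhe41 and Irf8 fell by 1.13, 0.94 and 0.89, while Spi1, which encodes PU.1, gave -0.14 (adjusted p = 0.815). Runx1, a factor of activated and developing microglia, stood at 149.8, 174, 179, 170.3 and 161 CPM in PBP and 1005, 998, 997, 999.8 and 890.3 in PBL. Its replicates were tight in both groups, and the rise was 2.55 ± 0.09 (adjusted p = 7.28e-22). Klf4, Klf10 and Bhlhe40 rose by 4.57, 2.33 and 3.20.

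Surface and secreted genes of homeostatic microglia were lower, but how many were called depended on the fit, as it did over all genes. Of all genes tested, 21.5% were lower with all libraries and 23.1% without PBP replicate 5, and far fewer were called among XDP libraries alone. Of 30 tested members 18 were lower and 1 higher with all libraries, 19 and 1 without PBP replicate 5, and 6 and 0 among XDP libraries alone, and the median moved from -0.35 to 0. P2ry12, a purinergic receptor that guides microglial processes, stood at 11145, 10465, 11315, 10466 and 7459 CPM in PBP and 4979, 4206, 3905, 3270.2 and 4484 in PBL. PBP replicate 5 was the lowest saline library and still above all PBL libraries, and the fall was 1.29 ± 0.11 with all libraries and 0.83 ± 0.16 against it alone (adjusted p = 0.00077). Gpr34, a lysophospholipid receptor, Cx3cr1, the receptor for the neuronal chemokine fractalkine, P2ry13, a purinergic receptor, Bin1, a membrane-bending protein, and Tgfbr1, a receptor for TGF-beta, also fell in all 3 fits, by 1.62, 1.24, 0.93, 0.98 and 0.82 with all libraries. Csf1r stood at 4776, 6088, 6142, 7859.7 and 4765 CPM in PBP and 4533, 4972, 4456, 3729 and 5052 in PBL. Here PBP replicates 1 and 5 lay inside the PBL range, and the fall of 0.38 ± 0.13 with all libraries (adjusted p = 0.0141) compares with a log2 fold change of -0.05 ± 0.20 against PBP replicate 5 alone (adjusted p = 0.915). Tmem119 was likewise lower with all libraries (-0.67) and not called among XDP libraries (-0.34, adjusted p = 0.289). In bulk samples fewer cells of a type and less RNA per cell cannot be told apart.

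Receptors that couple to G proteins and their regulators changed in both directions. With all libraries 21.5% of all genes tested were called in each direction, near the share of lower members in the TGF-beta list below. Of 34 tested members 14 rose and 13 fell (13 and 13 without PBP replicate 5, 11 and 9 among XDP libraries, median -0.07). Gpr84, a receptor for medium-chain fatty acids, stood at 384, 324, 307, 309 and 282 CPM in PBP and 3681, 2493, 2977, 3271 and 2965 in PBL. The groups lay far apart, with PBP replicate 5 the lowest saline library and a rise of 3.26 ± 0.20. The prostaglandin receptor Ptger4 rose by 3.85, the complement receptor C5ar1 by 2.39, the acid-sensing receptor Gpr65 by 2.62 and the chemokine receptor Ccr1 by 1.27. Gpr183, an oxysterol receptor, S1pr1, a sphingosine phosphate receptor, and Lpar6, which like Lpar5 senses lysophosphatidic acid, fell by 1.91, 1.55 and 1.57. Ch25h, which makes the precursor of the ligand of GPR183, rose by 6.94 with all libraries, to 197 ± 71.9 CPM. PBP replicate 5 had no count of it. In the TGF-beta list 8 of 25 members rose and 6 fell (8 and 6 without PBP replicate 5, 5 and 1 among XDP libraries, median 0.06). Bambi, a decoy receptor, and Skil and Smad7, which inhibit the pathway, rose by 2.91, 1.20 and 0.56, while Smad3, an effector, fell by 0.55.

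Of 24 inflammatory and redox enzymes 9 rose and 3 fell (9 and 4 without PBP replicate 5, 8 and 1 among XDP libraries, median 0.25). As background for this and the next lists, 21.5% of all genes tested were called in each direction with all libraries. The shares of lower enzymes, cell death genes and class II genes, and of higher class I genes, lay near or below that. Acod1, which makes itaconate, had no count in PBP and a mean of 14.7 CPM in PBL, at least 207-fold higher. Txnrd1, a thioredoxin reductase, Sod2, the mitochondrial superoxide dismutase, and Cybb, the catalytic subunit of the phagocyte oxidase, rose by 2.97, 1.41 and 2.08, and Hpgd, which inactivates prostaglandins, fell by 1.86. Among 24 genes of inflammasomes and cell death 12 rose and 4 fell (12 and 5 without PBP replicate 5, 8 and 1 among XDP libraries, median 0.29), with Fas, a death receptor, Casp4, the sensor of cytosolic LPS, and Mcl1, a survival factor, up by 3.85, 3.44 and 1.99. Pycard, the inflammasome adaptor, fell in all 3 fits, by 0.67, and Casp1 and Nlrp3 gave -0.46 and 0.50 with all libraries and were not called among XDP libraries. Of 19 genes of class II presentation and costimulation 6 rose and 3 fell (6 and 7 without PBP replicate 5, 6 and 1 among XDP libraries, median 0). Cd40 and Cd83, costimulatory molecules, and Cd274, the checkpoint ligand PD-L1, rose by 6.90, 3.69 and 2.06, but none of H2-Aa (-0.60), H2-Ab1 (-0.17) and Cd74 (0.50) passed. Of 21 class I and immunoproteasome genes 4 rose and 8 fell (4 and 8 without PBP replicate 5, 4 and 0 among XDP libraries, median -0.08). Nlrc5, the transactivator of class I genes, rose by 2.67 and H2-K1 by 0.71, the latter uncertain because it shares reads with other class I genes. Of 19 complement and Fc receptor genes 9 rose and 1 fell (8 and 3 without PBP replicate 5, 8 and 0 among XDP libraries, median 0.26), with Fcgr3 at 0.77, Fcgr2b at 0.52 and C1qa at 0.32, all 3 also called among XDP libraries.

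Metabolic lists held members that changed each way. Beside the 21.5% of all genes tested that were called in each direction with all libraries, the share of iron genes that fell was no different in size. Of 29 genes of glycolysis and HIF1A targets 8 rose and 14 fell (6 and 14 without PBP replicate 5, 5 and 2 among XDP libraries, median -0.29). Glucose transporter Slc2a1, the regulator Pfkfb3 and lactate dehydrogenase Ldha rose by 2.29, 2.16 and 1.21, whereas Pfkl, Tpi1 and Aldoa, enzymes within the pathway, fell by 0.69, 0.54 and 0.41, none of these called among XDP libraries. Of 25 cholesterol genes 6 rose and 3 fell with all libraries (6 and 3 without PBP replicate 5, median 0.08). The shares with all libraries are near or below the 21.5% of all genes called in each direction. Among XDP libraries alone the median was 0.44, beside 0.03 over all genes. Srebf2, a factor that induces cholesterol synthesis, rose by 1.19, and the efflux transporter Abcg1 was lower, at -0.97. Of 17 iron genes 9 rose and 4 fell (9 and 4 without PBP replicate 5, 6 and 1 among XDP libraries, median 0.45). Slc39a14, a transporter that takes up iron and zinc, rose by 4.18, and Slc40a1, the exporter of iron from cells, fell by 1.50.

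Most genes that respond to glucocorticoids, and metallothioneins, rose. Of 18 tested members 13 rose and 2 fell with all libraries (15 and 2 without PBP replicate 5, 13 and 1 among XDP libraries alone, median 2.81). Mt2, a metal-binding metallothionein, stood at 0.649, 0.129, 1.48, 0.715 and 1.24 CPM in PBP and 91.4, 57, 92.7, 91.4 and 75.7 in PBL. All saline libraries were low, PBP replicate 5 included, and the rise was 6.62 ± 0.34 (adjusted p = 2.7e-17). Fkbp5, a chaperone that feeds back on the glucocorticoid receptor, rose by 2.46, the clock gene Per1 by 3.17, Zbtb16 by 5.10, Cebpd by 3.51 and Tsc22d3, which encodes GILZ, by 0.87. Sgk1, a kinase also known as a glucocorticoid target, fell by 1.80, and Nr3c1, the receptor, by 0.36. Circulating hormone was not measured.

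Chromatin and cell cycle genes contained a few large changes. Kdm6b, a demethylase that removes the Polycomb mark from histone H3, stood at 15.6, 12.3, 11.3, 13.4 and 16.5 CPM in PBP and 517, 677, 649, 769 and 829 in PBL. All LPS libraries were far above all saline libraries, with a rise of 5.64 ± 0.18 (adjusted p = 1.73e-22). In the chromatin list 8 of 33 members rose and 10 fell (9 and 9 without PBP replicate 5, 4 and 4 among XDP libraries, median 0.07), among them Tet1, which oxidises methylated DNA, down at -2.09, and Cbx8 as described. Of 36 cell cycle genes 6 rose and 10 fell (8 and 12 without PBP replicate 5, 5 and 2 among XDP libraries, median -0.19). Over all genes tested 21.5% were called in each direction with all libraries. The inhibitor Cdkn1a rose by 3.64 and Ccnd2, Cdk6 and Myc, which drive entry into the cycle, by 3.07, 1.54 and 1.49, while Ccnd1 fell by 1.21. Mki67 and Top2a, which mark dividing cells, stayed low, at 0.862 ± 0.69 and 1.86 ± 1.73 CPM in PBP and 2.63 ± 2.17 and 2.05 ± 0.871 in PBL, and did not pass (adjusted p = 0.0859 and 0.895).

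Most genes of neurons, astrocytes and red blood cells that were higher in PBL were not called against PBP replicate 5 alone. Of 13 neuron markers 8 were higher with all libraries, 11 without PBP replicate 5 and 0 among XDP libraries alone, where the median was -0.02. Snap25, a synaptic membrane protein, stood at 11.5, 17.5, 9.14, 9.92 and 44.9 CPM in PBP and 29, 36.2, 53.6, 60.1 and 44 in PBL. PBP replicate 5 lay inside the PBL range, so the log2 fold change was 1.28 ± 0.40 with all libraries, 1.92 without it and 0.01 ± 0.57 against it alone (adjusted p = 0.997). Of 12 astrocyte markers 8 were higher with all libraries, 9 without PBP replicate 5 and 1 among XDP libraries alone. That 1, Slc1a3, a glutamate transporter that was also higher in PL than in PP (0.74), had 391 CPM on average in PBP replicates 1 to 4, 349 in PBP replicate 5 and 659 in PBL. Aldoc, an aldolase of astrocytes, stood at 8.11, 10.2, 7.52, 7.6 and 49.1 CPM in PBP and 40.5, 37.7, 80.4, 62.2 and 69.9 in PBL, with PBP replicate 5 again inside the PBL range. All 5 tested red blood cell genes were higher without PBP replicate 5 and 0 among XDP libraries. Hbb-bs, a beta globin whose reads may mix with those of its near copy, stood at 1.3, 1.8, 0, 1.79 and 30.6 CPM in PBP and 25.8, 1.24, 78.4, 35.5 and 31.8 in PBL, where PBL replicate 2 was as low as the saline libraries sorted on the Astrios.

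Genes called higher without PBP replicate 5 for which its level reached the PBL range made up 12.6% of genes tested, and lower genes of that kind 9.7%. By log2 fold change, the 10 largest of the higher ones with a mean of at least 10 CPM were led by the globins. Beside Hbb-bs and the alpha globin Hba-a1 they were Negr1, Peg3, Ryr2, Ank3, Kalrn, Snhg11, Adgrb3 and Arpp21, which are known for their expression in neurons. Snhg11, a long noncoding RNA, stood at 27.5, 52.3, 14.4, 27.2 and 244 CPM in PBP and 250.5, 282, 353, 404 and 236 in PBL. Without PBP replicate 5 the log2 fold changes of these 10 genes ran from 3.21 for Arpp21 to 4.77 for Hbb-bs, and against PBP replicate 5 alone from -0.11 for Arpp21 to 0.55 for Ryr2. Ank3, which anchors channels at the axon start, gave 3.53 and 0.13. None of the 10 was called in PL against PP.

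Lower genes for which PBP replicate 5 reached the PBL range are given by the same rule. The 10 largest were Hsph1, Zfp60, Rbl1, Ppcs, Rnf144b, Zfp606, Zkscan5, Cacybp, Harbi1 and Gatb. Their log2 fold changes without PBP replicate 5 ran from -1.68 for Hsph1 to -1.33 for Gatb. Against PBP replicate 5 alone they were smaller but still negative, from -0.76 for Ppcs to -0.13 for Zkscan5. Unlike the 10 higher genes above, most were called in PL against PP. Zfp60, Rbl1, Ppcs, Rnf144b, Zfp606, Cacybp and Harbi1 were lower in PL, whereas Hsph1, Zkscan5 and Gatb were not called. Hsph1, a heat shock protein of the HSP110 family, stood at 17.2, 90.7, 61.4, 33 and 24.5 CPM in PBP and 17.4, 8.88, 32.6, 13.8 and 5.74 in PBL. Hspa8, the constitutive HSC70, stood at 222, 413, 311, 214 and 152 CPM in PBP and 225, 159.9, 179.7, 122 and 115 in PBL. Both varied among the saline libraries of the Astrios, with PBP replicate 2 highest, and overlapped with PBL. Hspa8 gave -0.71 ± 0.20 with all libraries (adjusted p = 0.00399) and 0.09 ± 0.28 against PBP replicate 5 alone (adjusted p = 0.901). In the heat shock and unfolded protein list 10 of 26 members fell and 8 rose with all libraries, and 0 fell and 5 rose among XDP libraries alone. Those 5 included Xbp1, Atf4 and Herpud1, of the unfolded protein response, at 1.38, 1.56 and 1.36. Of 32 nuclear genes of oxidative phosphorylation 11 fell with all libraries, 12 without PBP replicate 5 and 0 among XDP libraries alone. Of lysosome and phagocytosis genes, 14 of 33 fell with all libraries, 17 without PBP replicate 5 and 2 among XDP libraries, those 2 being Tfeb, a regulator of lysosome genes, and Mertk, a receptor for dying cells, at -1.46 and -0.71. Of all genes tested, 21.5% were called lower with all libraries and 23.1% without PBP replicate 5. Far fewer were called among XDP libraries alone, so fewer calls there are not particular to these 3 lists. The medians of the heat shock, oxidative phosphorylation and lysosome lists were -0.28, -0.1 and -0.21 with all libraries. Among XDP libraries alone they were 0.15, 0.18 and -0.03, beside 0.03 over all genes. The sorter, the sorting day, the RNA quality number and the neuron marker level all moved with PBP replicate 5, and their part in these results was not tested.

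**Figure D5:**
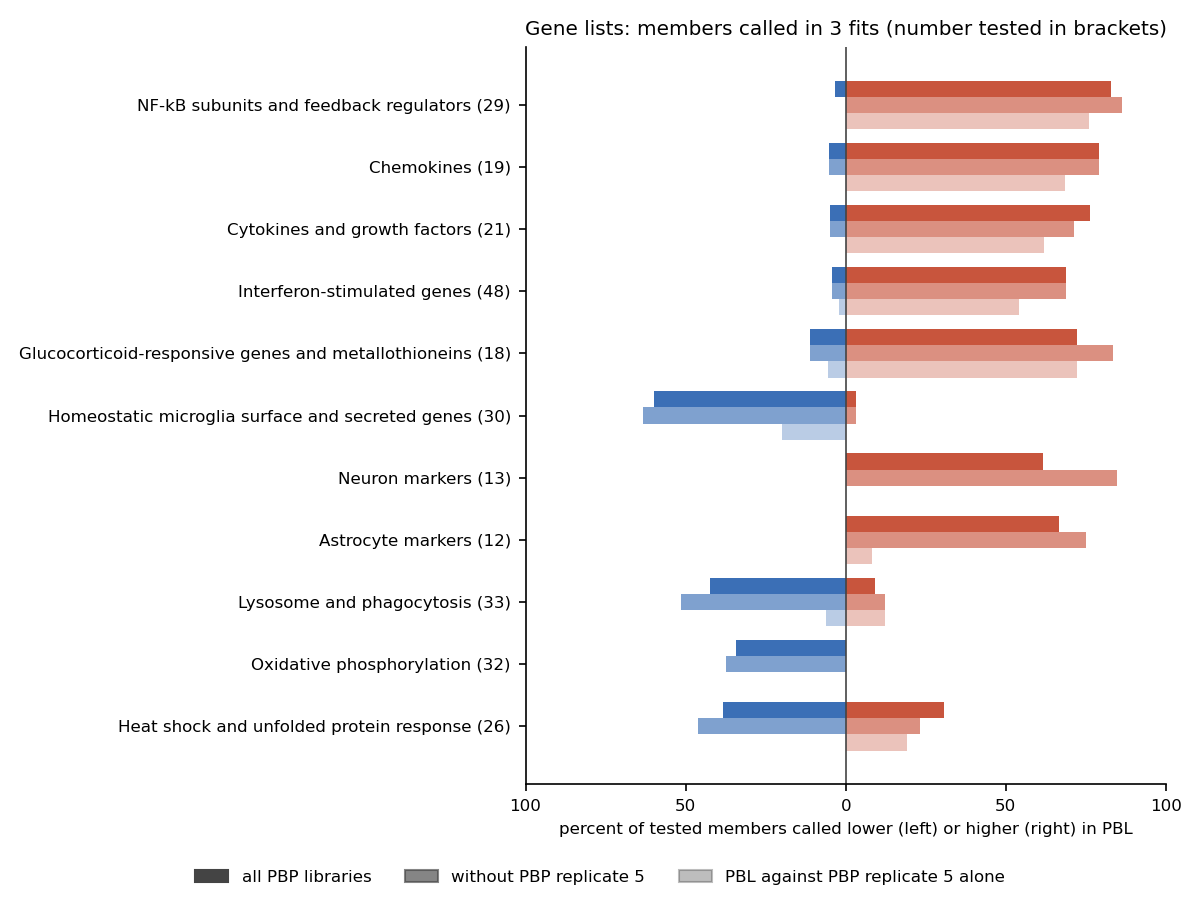
Percent of tested members called higher (right, red) or lower (left, blue) in PBL for 11 gene lists, with 3 bars per list for the 3 fits. With all libraries and without PBP replicate 5, the NF-kB list had 24 and 25 higher members of 29 and neuron markers 8 and 11 of 13. Oxidative phosphorylation had 11 and 12 lower members of 32. Of all genes tested, 21.5% and 26.8% were higher and 21.5% and 23.1% lower in these fits, and far fewer were called among XDP libraries alone. Medians of the 3 lists were 2.55, 1.56 and -0.1 with all libraries and 2.63, -0.02 and 0.18 among XDP libraries alone.

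Genes of neutrophils were higher in PBL and, unlike those of neurons, low in PBP replicate 5 too. Of 8 tested markers 7 were higher with all libraries and without PBP replicate 5, and 2 among XDP libraries alone, with a median of 8.12, or 7.94 with Lcn2, which had no PBP count, set to its bound. S100a9 stood at 0, 0, 0, 0 and 0.777 CPM in PBP and 33.7, 15.6, 30.3, 66.4 and 50.3 in PBL. Camp, the cathelicidin of neutrophil granules, stood at 0, 0, 0, 0 and 0.621 CPM in PBP and 45, 14.9, 39.4, 75.6 and 78.4 in PBL. Both were at 0 in PBP replicates 1 to 4, barely detected in PBP replicate 5 and lowest in PBL replicate 2 among the LPS libraries. Against PBP replicate 5 alone S100a9 gave 5.65 ± 1.41 (adjusted p = 0.0127), and Camp did not pass (adjusted p = 0.0673), on 5 and 4 counts in PBP over all libraries. Lcn2, a siderophore-binding protein of neutrophils that other cells also make under LPS, had no count in PBP and a mean of 12 CPM in PBL, at least 169-fold higher. The granule gene Mpo had no count in either group, whereas the neutrophil genes Mmp8, Cxcr2, Ly6g and Elane, none of which passed the filter, had no count in PBP and some in PBL. In undepleted mice the list summed to 195 to 302 CPM in PL and 239 to 301 in PP. As mean log2 CPM of its tested members it stood at -0.33, 0.19, 2.22 and 0.29 in PL replicates 1 to 4. In PP that mean was -0.72 to 0.84. Of 9 tested monocyte markers 5 were higher and 1 lower with all libraries (6 and 1 without PBP replicate 5, 3 and 1 among XDP libraries), with a median of 2.2, and the list summed to 34.1 to 44.6 CPM in PBP and 50.8 to 103 in PBL. Cd177, a neutrophil surface protein on that list, had no count in PBP and reached a mean of 5.97 CPM in PBL, at least 83.8-fold higher. Ccr2, the chemokine receptor of inflammatory monocytes, was the 1 lower marker and fell by 2.45. Csf3r, a receptor that microglia also express, was at 295 ± 38 CPM in PBP and 272 ± 24 in PBL and made up most of the summed level of the neutrophil list in PBP. How far cells other than microglia contributed was not tested.

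Of 14 lymphocyte markers in the table only 2 passed the filter. Both tested markers were lower, Ighm, the constant region of IgM, by 1.73 and Cd79b, a B cell receptor component, by 0.96, while the T cell and B cell genes Cd3d, Cd3g, Cd8a and Ms4a1 had no count in either group. Cd3e, Nkg7 and Ncr1, genes of T cells and natural killer cells, had no count in PBP and some in PBL, and Trac and Cd79a had none in PBL and some in PBP. The list summed to 468 to 730 CPM in PBP and 155 to 262 in PBL. Ighm was lower in PL than in PP as well (-1.40). Of 10 tested border-associated macrophage genes 2 were lower and none higher with all libraries, a share of lower genes near the 21.5% of all genes, and none was called among XDP libraries.

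The response in repopulated mice was set against that in undepleted mice by testing the difference of the 2 contrasts. With edgeR's quasi-likelihood test no gene passed with all libraries, the smallest adjusted p being 0.0533, and 2120 genes had an unadjusted p under 0.05. DESeq2 on the same libraries called 51 genes, 13 with a larger and 38 with a smaller value in repopulated mice, limma voom called 0, and edgeR with no filter on low counts called 11. Without PBP replicate 5, 352 genes (2.12%) had a larger value in repopulated mice and 331 (1.99%) a smaller one. Leaving out other single libraries gave up to 16 genes, that number without PL replicate 3, and 8 without PBL replicate 3. Slamf1, a receptor of activated leukocytes that takes part in bacterial sensing, stood at 8.22, 4.5, 4.17, 5.19 and 4.97 CPM in PBP and 103, 95.6, 81.6, 121 and 107 in PBL, and at 10.8, 13.4, 11.4, 17.4 and 13.2 in PP and 103, 75.2, 101 and 120.3 in PL. The levels after LPS overlapped and the saline levels were lower in PBP, so that the log2 fold changes were 4.22 and 2.92 and their difference 1.30 ± 0.23 (adjusted p = 0.0533, and 0.00861 without PBP replicate 5). Gimap6, a GTPase of leukocytes, fell by 1.73 in repopulated mice and gave -0.45 in undepleted mice (adjusted p = 0.0613), a difference of -1.28 ± 0.25. Mtus1, a microtubule-associated protein, fell in both, by 1.93 and 1.08. Fabp5, a fatty acid-binding protein, rose less in repopulated mice (2.40 against 5.59, adjusted p of the difference = 0.0649). The other genes with the smallest p were Gtf3c1, Zfp661, Camk2d, Cldn12, Elac1 and Atp1b2, with adjusted p between 0.0533 and 0.0649, and for Atp1b2, a sodium pump subunit of astrocytes, PBP replicate 5 at 31.8 CPM lay with PBL (28.7 on average) and not with PBP replicates 1 to 4 (5.53).

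Several leading genes had close values in the 2 responses. Nfkbia rose by 3.51 in repopulated and 3.52 in undepleted mice (difference -0.01 ± 0.16), Socs3 by 6.60 and 6.50 (0.10 ± 0.27), Ccl12 by 5.53 and 5.59 (-0.06 ± 0.33) and Runx1 by 2.55 and 2.47 (0.08 ± 0.12). Some values were larger in repopulated mice without passing: Kdm6b rose by 5.64 against 4.75 (adjusted p of the difference = 0.135, and 0.0197 without PBP replicate 5), Gbp5 by 4.94 against 3.70 (0.213 and 0.0362) and Tlr4 fell by 1.70 against 1.06 (0.218 and 0.0249). PBP replicate 5 was the highest saline library for Kdm6b and Gbp5 and the lowest for Tlr4, in each case outside the PBL range. S100a9 gave 8.15 against 0.83, with an adjusted p of 0.135, or 0.0206 without PBP replicate 5, and PL libraries had 0.124, 0.356, 2.01 and 1.19 CPM. An adjusted p above the threshold does not show that 2 responses are alike, and the sorter and the day separate PBL from undepleted mice too. All PL and PP libraries came from the Astrios, PP on sorting day 5 and PL on days 4 and 5, so that LPS and saline libraries shared a sorter in undepleted mice but, apart from PBP replicate 5, not in repopulated mice. A sorter term in the fit could not settle this. Only PBP held libraries from both sorters, so the term rested on PBP replicate 5 against PBP replicates 1 to 4.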

How the data were processed

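Whole-gene counts were deposited by the authors for 29 libraries of sorted microglia. Per the submitters' processing notes, HTSeq 0.11.0, TopHat and cutadapt 2.10 were among the tools and the genome build was GRCm39. Whether counting used strand is not given in the sources used here, so overlapping antisense genes cannot be told apart. RNA quality numbers (scores) and RNA concentrations came from the authors' deposited sample table. Genes were filtered with filterByExpr, scaled by TMM and tested with edgeR 4.0.16 (quasi-likelihood, robust, R 4.3.3) in 1 fit of all 29 libraries with 1 coefficient per group and 23 residual degrees of freedom, with Benjamini-Hochberg adjustment over 16632 genes. The test was checked on simulated data. Samples were grouped by their labels. Totals of 5670450 to 11198323 counts per library make 3 counts over the 5 libraries equal to 0.0713 CPM in PBP and 0.0972 CPM in PBL, which limits counting error only. Pairs of replicates differed by 6.45 to 32.5 times the sampling variance, so none was a duplicate. Promoters and motifs came from RefSeq (GRCm38.p6), where 10615 of the tested genes matched by symbol. Alternatives were DESeq2 1.42.0, limma 3.58.1 (voom), other size factors, no filter, fewer groups, sorter as a covariate, a replicate block and each library left out. Named genes were the 10 largest changes in each direction that held in all 3 fits with a mean of at least 10 CPM, the 10 largest whose level in PBP replicate 5 reached the PBL range, leading or defining members of the gene lists, and the 10 smallest p-values for the difference from undepleted mice. Results for some genes are not reported here. Members, lists and rules were chosen with earlier results of these data known.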

Additional observations from a re-analysis of the deposited data

Results flagged for a closer look

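Values in which 1 library stood far from the other 4 of its group by Dixon's criterion are listed here. Chance alone meets that criterion in about 1 group in 20, but several of these genes were chosen because PBP replicate 5 stood apart, and S100a9 and Camp were at 0 in the other 4 libraries, so how often the criterion was met is not read against chance. PBP replicate 5 was high for the summed neuron markers (690 CPM, the others 59 to 175), red blood cell markers (75.5 CPM, the others 0.134 to 7.2) and oligodendrocyte markers (286 CPM, the others 160 to 186), and low for the RNA quality number (7.4, the others 8.8 to 9). Among single genes it was high for Snap25 (44.9 CPM), Aldoc (49.1 CPM), Snhg11 (244 CPM), Hbb-bs (30.6 CPM), S100a9 (0.777 CPM) and Camp (0.621 CPM), and low for P2ry12 (7459 CPM).

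PBP replicate 1 was high for Fos (102 CPM, the others 0.626 to 1.75), Egr1 (152 CPM, the others 2.24 to 8.87) and Slamf1 (8.22 CPM, the others 4.17 to 5.19). PBL replicate 5 was high for Rgs2 (112 CPM, the others 47.8 to 65.5), which fell after LPS, and low for Runx1 (890.3 CPM), which rose.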

How the results depend on the processing

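The counts of genes higher and lower in PBL stayed within 1.5 times under DESeq2, limma voom, other size factors, no filter, fewer groups and the replicate block. They fell to 1230 higher and 994 lower with the sorter in the fit and to 1289 and 805 among XDP libraries alone; the cause was not tested. With each library left out, 3023 to 4463 genes were higher and 3157 to 3835 lower, the largest numbers without PBP replicate 5. The test of the difference from undepleted mice, 0 genes with all libraries, gave 51 under DESeq2, 1 with RLE size factors, 11 with no filter, 2 with the replicate block, and 0 to 683 with each library left out (683 without PBP replicate 5, 16 without PL replicate 3 and 8 without PBL replicate 3). Leaving out PL and PP libraries was added after seeing the data. Same-numbered PBP and PBL libraries did not deviate together (correlations -0.185 to 0.0904), and the replicate number is no pairing. With the sorter in the fit, 6 named genes changed sign: Arpp21 (-0.126), Atp1b2 (-0.147), Hba-a1 (-0.104), Hspa8 (0.0752), Negr1 (-0.0599) and Snap25 (-0.00871). Among XDP libraries 5 did: Arpp21 (-0.11), Atp1b2 (-0.13), Hba-a1 (-0.0868), Hspa8 (0.0881) and Negr1 (-0.0431). Of 219 named genes, 46 and 44 kept their direction but no longer passed in these 2 fits. No other setting run reversed a called value among these genes. Genes with few PBP counts, such as S100a9 and Camp, are limited by depth.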

Other observations

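Of 20 tested members of the list of C/EBP factors and acute-phase proteins, 9 rose and 4 fell with all libraries, and 7 rose and 2 fell among XDP libraries alone. Over all genes tested 21.5% were called in each direction with all libraries, so that the share of lower members was near that of all genes. Cebpb, a factor that drives acute-phase genes, rose by 4.77 ± 0.29, whereas Cebpa, of the same family, fell by 0.68. Il4ra, which binds interleukin-4, rose by 2.84, and Il6st, the shared signalling chain of interleukin-6 receptors, fell by 0.60, or 0.27 among XDP libraries alone (adjusted p = 0.414).

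Of 24 tested genes known from disease-associated microglia, 6 rose and 1 fell with all libraries, and 9 rose and 0 fell among XDP libraries alone, with a median of 0.1 over the list with all libraries. With all libraries the share of higher members was near the 21.5% of all genes tested. Among XDP libraries alone the median of the list was 0.44, beside 0.03 over all genes. Spp1, the secreted protein osteopontin, rose by 3.19, and Csf1, a ligand of the receptor that BLZ945 blocks, by 1.48. Clec7a, a receptor for fungal glucans, fell by 1.47 and was not called among XDP libraries alone (-0.79, adjusted p = 0.0699). Apoe, a lipid carrier, and Trem2, a lipid-sensing receptor, gave -0.03 (adjusted p = 0.872) and -0.06 (adjusted p = 0.594).

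Of 10 oligodendrocyte markers 4 were higher and 1 lower with all libraries, and none was called among XDP libraries. Of 7 endothelial and pericyte markers 4 were higher and 1 lower, and 1 was called among XDP libraries, Kdr, a receptor for vascular growth factor (1.76, adjusted p = 0.00706).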
